A study of Mus musculus with 24 samples.

Results

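The genes described here are 10 heat shock chaperones of the cytosol and the mitochondrion: Hspa8, Hspa1a, Hspa1b, Hsph1, Dnaja1, Dnajb1, Hsp90aa1, Hsp90ab1, Hspd1 and Hspe1. They were taken by gene symbol, and all 10 were found among the 23234 genes of each of the 2 deposited expression tables. RNA-seq had been made from primary splenic B cells of C57BL/6 mice, to compare gene expression between B cells that lack Tet2 and Tet3, the enzymes that oxidise methylated cytosine in DNA, and control B cells. The 4 groups held 3 libraries each: Tet2/Tet3-deficient CD93- B cells (DKO) and control CD93- B cells (CTL), and Tet2/Tet3-deficient CD93+ B cells (titled Tet KO, called DKO here) and control CD93+ B cells. CD93 marks immature B cells in the spleen, and CD93- B cells are the mature ones. The age of the mice, the way the genes were deleted, the cell type that lost them, the genotype of the controls beyond the word control, and whether replicates came from separate mice are not given in the sources used here, so p-values measure the spread between libraries, which may be technical.

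Chaperones bind unfolded or nascent proteins and release them for folding at the cost of ATP. In the cytosol, J-domain proteins such as Dnajb1 and Dnaja1 hand clients to HSP70 (Hspa8 is the constitutive form, Hspa1a and Hspa1b the stress-induced forms), HSP110 (Hsph1) resets HSP70 by exchanging its nucleotide, and HSP90 (Hsp90aa1, Hsp90ab1) finishes kinases, receptors and other late-folding clients. In the mitochondrial matrix, HSP60 (Hspd1) and its lid HSP10 (Hspe1) form a closed folding chamber. Heat shock factor 1 (Hsf1) switches many of these genes on under stress by binding inverted repeats of GAA and TTC, and lymphocytes that leave the resting state and grow also make more of the constitutive chaperones.

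Promoter sequences show how these genes share that element and which of them have the same upstream bases, which bears on reading them as separate measurements. RefSeq windows of build GRCm38.p6, from 250 bases before to 50 bases after each annotated start, were at hand for 7 of the 10 genes, in 12 windows. They were searched for GAANNTTC and TTCNNGAA, each its own reverse complement, and for GAANNTTCNNGAA and TTCNNGAANNTTC, which are reverse complements of each other and contain both shorter elements. Of all 32851 windows, 15.1% held a shorter element and 0.603% a longer one. A shorter element lay in a window of 6 of the 7 genes, and a longer one in a window of 3, Hspd1, Hspe1 and Hsph1. Counted by window, as for the shares of all windows, 7 of the 12 held a shorter element and 4 a longer one. These windows are not all separate, since those of Hsph1 overlap each other and Hspd1 shares bases with Hspe1. The stretches below run 5′ to 3′ on the strand of each gene, and capitals mark the matched letters, which in Hspe1 and Hspd1 join overlapping matches into a run of 4 units. Hspe1 lies on the plus strand and Hspd1 on the minus strand of the same stretch, chr1:55088053-55088082, which is also exonic in the transcript Hspd1-202 of GENCODE M21. Hsph1 is shown at chr5:149636351-149636380 (minus strand) and Dnaja1 at chr4:40722333-40722362 (plus strand), each also exonic in alternative transcripts of its gene. Hspa1a is shown at chr17:34972227-34972376 and Hspa1b at chr17:34959309-34959458, both on the minus strand and outside annotated exons.
Hspe1: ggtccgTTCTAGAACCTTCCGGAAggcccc
Hspd1: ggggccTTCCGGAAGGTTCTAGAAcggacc
Hsph1: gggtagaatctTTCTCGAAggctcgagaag
Dnaja1: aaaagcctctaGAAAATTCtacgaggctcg
Hspa1a: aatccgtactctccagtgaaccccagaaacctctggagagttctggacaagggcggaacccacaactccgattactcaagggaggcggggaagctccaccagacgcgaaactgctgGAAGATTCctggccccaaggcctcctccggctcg
Hspa1b: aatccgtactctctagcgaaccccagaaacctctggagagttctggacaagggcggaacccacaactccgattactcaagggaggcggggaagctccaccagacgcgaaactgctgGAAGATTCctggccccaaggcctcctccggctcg

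RefSeq gives 2 start sites of Hspd1. That of the window shown lies 216 bases from the Hspe1 start site, head to head, whereas the other lies 95 bases past the Hspe1 start, where the genes overlap, and its window held no element. In the stretch shown, the 18-base element of Hspe1 is the reverse complement of that of Hspd1, so both genes carry the same bases. The 250 bases upstream of Hspa1a and Hspa1b differ at 3 positions. The longer element of Hsph1 lies after its start site and is not printed. No window of Dnajb1, a gene known as an Hsf1 target, held either element, which says only that these letters are not in these windows. A match describes the letters and was not tested as a binding site.

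Expression was given as FPKM, fragments scaled by transcript length and library size, and differences were tested with limma on log2(FPKM + 1), within each table, over all genes that reached 1 FPKM in 3 or more of the 6 libraries. Fold changes on this scale understate the change of low genes. Among 10960 genes tested in CD93- cells, 2045 were higher and 306 lower in DKO cells at an adjusted p under 0.05. After each library was divided by the upper quartile of its tested genes and put back on a shared scale (rescaled values), 1869 were higher and 2609 lower, and the median log2 change of all genes moved to -0.08, against 0.11 with the authors' scaling. In CD93+ cells the authors' scaling gave 188 higher and 173 lower of 11250 genes, and the rescaled values 1280 higher and 1051 lower, with medians over all genes of -0.22 and -0.01. Library DKO replicate 3 of the CD93+ cells stood apart, with an FPKM sum of 309359 against 523898 to 597968 in the other CD93+ libraries and an upper quartile of 15.4 against 25.8 to 30.05 FPKM, and with 21908 genes above 0 against 14976 to 19195. In the libraries labelled DKO, Tet2 was at 9.94, 8.15 and 9.40 FPKM in CD93- cells against 6.36, 8.11 and 8.79 FPKM in CTL, and at 3.55, 2.29 and 1.80 FPKM in CD93+ cells against 3.18, 3.47 and 3.10 FPKM in CTL. Tet3 was at 15.7, 15.6 and 14.9 FPKM in CD93- DKO cells against 14.8, 20.1 and 19.0 FPKM in CTL, and at 9.92, 7.67 and 3.84 FPKM in CD93+ DKO cells against 12.1, 13.01 and 14.1 FPKM in CTL. A value for a whole gene does not show the loss of part of it, so these levels do not check the genotype labels. All 9 B cell markers used, Cd79a among them, passed the filter in both populations. Cd93 itself was at 28.0 to 50.5 FPKM in CD93+ DKO libraries and 50.9 to 59.9 FPKM in CTL libraries, and at 3.32 to 3.85 FPKM in CD93- DKO libraries and 3.88 to 4.65 FPKM in CTL libraries, in tables that had been made separately.

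In CD93- cells 6 of the chaperone genes were higher in DKO than in CTL cells. Hspe1 and Hspa8 changed most, 1.74-fold and 1.73-fold by the group means, followed by Hsp90ab1, Hsp90aa1, Hspd1 and Hsph1. The J-domain genes Dnaja1 and Dnajb1 did not pass the test, and the stress-induced Hspa1a and Hspa1b stayed under the expression filter. Of the 8 genes tested, 6 rose and 0 fell, where 18.7% of all tested genes rose and 2.79% fell. All 8 tested genes passed an unadjusted p of 0.05, each with the higher value in DKO cells. The median log2 change of the 8 was 0.59, beside 0.11 over all tested genes. After rescaling 6 genes again rose, where 17.1% of all genes rose and 23.8% fell, and their median was 0.37 beside -0.08. In all 8 the lowest DKO library was above the highest CTL library, as in 31.5% of all tested genes, and after rescaling this held in 6 of the 8, as in 21.4% of all genes. In bulk RNA, a change in the share of cells of a type and a change in RNA per cell cannot be told apart.

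**Figure D1:**
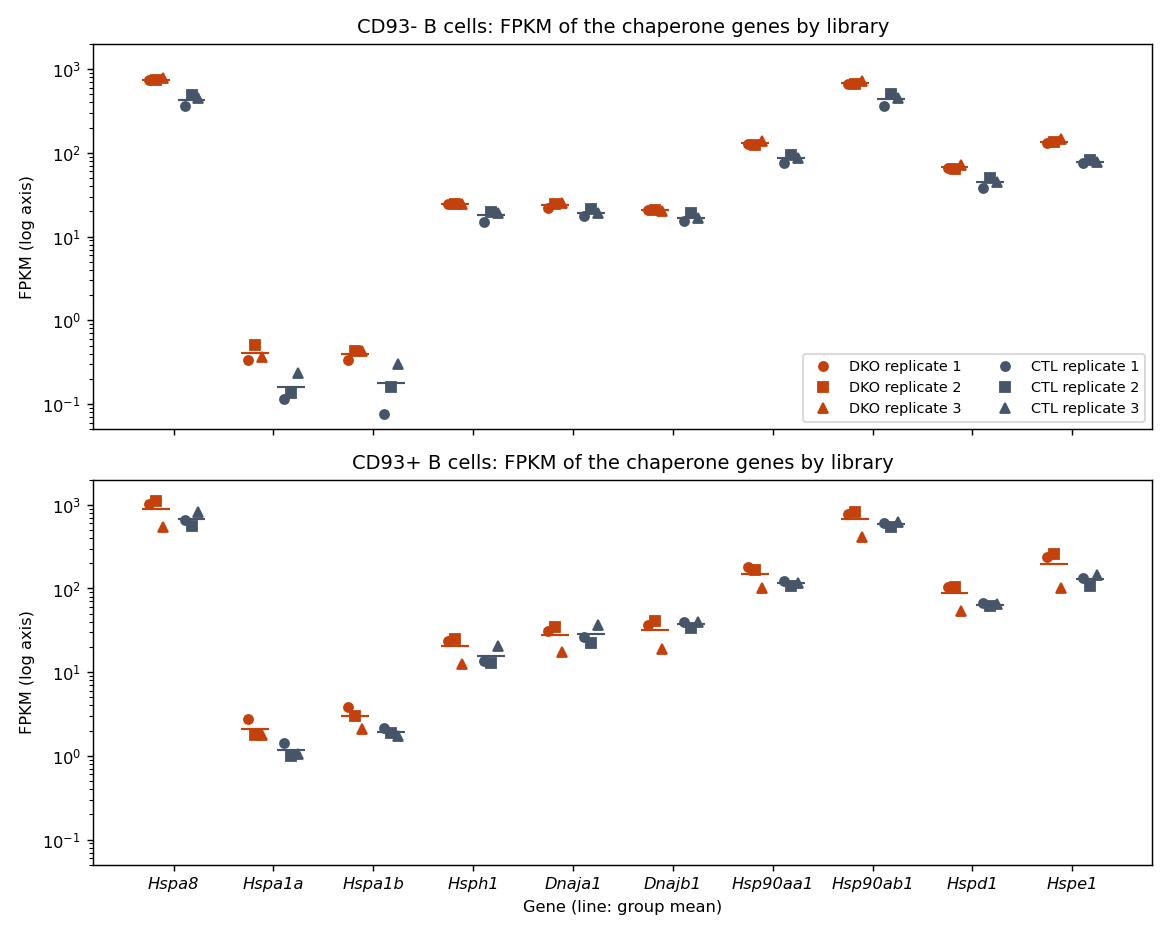
FPKM of each of the 10 chaperone genes on a log axis, with DKO libraries (orange) left of CTL libraries (grey), a symbol for each replicate and a line at each group mean. In CD93- cells every DKO library lies above every CTL library, whereas in CD93+ cells DKO replicate 3 is the lowest DKO library for each gene.

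Hspa8, which folds new proteins and uncoats clathrin vesicles, was at 735, 740 and 777 FPKM in DKO libraries, against 364, 487 and 450 FPKM in CTL libraries. All 3 DKO libraries were higher than all CTL libraries, and CTL replicate 1 was the lowest. Hspa8 averaged 751 ± 23.1 FPKM in DKO cells and 434 ± 63.2 FPKM in CTL cells (SD, n = 3 each), a log2 change of 0.80 ± 0.15 (SE; limma, adjusted p = 0.00215). Rescaled, the DKO libraries were at 693, 688 and 703 and the CTL libraries at 459, 474 and 463, so that the spread within each group shrank, and the log2 change was 0.58 ± 0.05 (SE; limma, adjusted p = 0.000163). Over the 17 alternatives the adjusted p of Hspa8 ran from 7.5e-06 to 0.0227.

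The stress-induced HSP70 genes were close to silent in these cells. Hspa1a was at 0.336, 0.507 and 0.366 FPKM in DKO libraries, against 0.115, 0.134 and 0.233 FPKM in CTL libraries. Hspa1b was at 0.335, 0.431 and 0.431 FPKM in DKO libraries, against 0.0760, 0.162 and 0.298 FPKM in CTL libraries. For both genes the groups did not overlap, but the values were near the median nonzero value of chemoreceptor genes, which B cells are not known to use, of 0.138 to 0.264 FPKM per library. Without the filter, the log2 changes were 0.27 for Hspa1a and 0.25 for Hspa1b (limma, adjusted p = 0.0796 and 0.139). Of the 50-base stretches of the Hspa1a transcript 58.8% also occur in Hspa1b, and 62.3% the other way round, so how the authors' counting split reads between the pair makes both values uncertain. No such stretch is shared between Hspa8 and Hspa1a or between Hsp90aa1 and Hsp90ab1.

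Hsph1, the HSP110 that exchanges nucleotide on HSP70, was at 24.4, 24.2 and 24.3 FPKM in DKO libraries, against 15.0, 19.5 and 19.2 FPKM in CTL libraries. The groups did not overlap and the DKO libraries were nearly equal. The log2 change was 0.43 ± 0.13 (SE; limma, adjusted p = 0.0389), and 0.22 ± 0.05 after rescaling (adjusted p = 0.0108). This call was lost when any DKO library (adjusted p = 0.122 to 0.135) or CTL replicate 3 (adjusted p = 0.0617) was left out. It was also lost with common sum scaling (limma, adjusted p = 0.1875) and without the filter (adjusted p = 0.0748), and held in 11 of 17 alternatives. Dnaja1, a J-domain protein that brings clients to HSP70, was at 22.1, 24.4 and 25.5 FPKM in DKO libraries, against 17.7, 21.4 and 18.9 FPKM in CTL libraries. Dnajb1, the stress-linked J-domain protein that works in disaggregation, was at 20.9, 20.9 and 20.4 FPKM in DKO libraries, against 15.2, 18.9 and 16.6 FPKM in CTL libraries. Neither pair of groups overlapped, yet neither gene passed the test, at log2 changes of 0.30 ± 0.13 for Dnaja1 (SE; limma, adjusted p = 0.124) and 0.29 ± 0.13 for Dnajb1 (adjusted p = 0.138). After rescaling their groups overlapped, and the changes were 0.09 ± 0.07 and 0.07 ± 0.06.

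Hsp90aa1, the inducible cytosolic HSP90, was at 127, 126 and 138 FPKM in DKO libraries, against 76.5, 93.5 and 87.6 FPKM in CTL libraries. Hsp90ab1, the constitutive one, was at 668, 673 and 727 FPKM in DKO libraries, against 368, 499 and 454 FPKM in CTL libraries. For both genes every DKO library was higher than every CTL library. Hsp90aa1 rose by 0.60 ± 0.13 on the log2 scale (SE; limma, adjusted p = 0.00596) and by 0.38 ± 0.05 after rescaling (adjusted p = 0.00120). Hsp90ab1 rose by 0.66 ± 0.15 (SE; limma, adjusted p = 0.00787) and by 0.43 ± 0.05 after rescaling (adjusted p = 0.00077). Per 100 FPKM of Hsp90ab1, Hsp90aa1 stood at 19.0, 18.7 and 19.0 FPKM in DKO libraries. In CTL libraries it stood at 20.8, 18.7 and 19.3, and these ranges overlapped. In CD93+ cells the ratio was 23.2, 20.5 and 24.5 in DKO libraries against 20.8, 19.7 and 18.9 in CTL libraries, also with overlap.

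The mitochondrial chaperonin pair rose as well. Hspd1 was at 66.2, 63.6 and 71.4 FPKM in DKO libraries, against 38.3, 50.5 and 44.5 FPKM in CTL libraries, with no overlap. Its log2 change was 0.59 ± 0.14 (SE; limma, adjusted p = 0.00842), and 0.37 ± 0.05 after rescaling (adjusted p = 0.00169). The call was lost without DKO replicate 3 (adjusted p = 0.053). Hspe1 was at 129.9, 134 and 145 FPKM in DKO libraries, against 75.01, 83.1 and 77.3 FPKM in CTL libraries, also with no overlap. Its log2 change was 0.79 ± 0.12 (SE; limma, adjusted p = 0.000727), and 0.57 ± 0.07 after rescaling (adjusted p = 0.001355), and it passed in all 17 alternatives. Per 100 FPKM of Hspd1, Hspe1 stood at 196, 210 and 203 FPKM in DKO libraries and at 196, 165 and 174 in CTL libraries, so the groups met at their edge. RefSeq names 23 pseudogenes of Hspd1, 7 of Hspe1 and 1 of Dnaja1, and how the authors treated reads that fit several places is not given in the sources used here.

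The 10 genes together made up 0.423%, 0.401% and 0.416% of the summed FPKM in DKO libraries, against 0.283%, 0.323% and 0.319% in CTL libraries. Hspa8 and Hsp90ab1 carried 75.5% to 78.2% of that sum. By mean FPKM, Hspa8 ranked 115 and Hsp90ab1 121 among all genes in the CD93- table, Hsp90aa1 ranked 492 and Hspe1 496, Hspd1 ranked 1069, and Dnaja1, Hsph1 and Dnajb1 ranked 3123, 3206 and 3586. Hspa1b and Hspa1a came last at 12543 and 12575. Hspa8 and Hsp90ab1 did not differ in level beyond their spread in CTL cells, at 434 ± 63.2 and 440 ± 66.8 FPKM, whereas in DKO cells their library ranges did not meet. Hsp90aa1 and Hspe1 were also neighbours whose DKO ranges overlapped.

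In CD93+ cells, with the authors' scaling, none of the 10 genes passed the test. All 10 were tested, 0 rose and 0 fell (limma), where 1.67% of all tested genes rose and 1.54% fell, and 1 gene, Hspa1a, passed an unadjusted p of 0.05. The median log2 change of the 10 was 0.34, beside -0.22 over all tested genes. After upper quartile rescaling 8 of the 10 rose and 0 fell, where 11.4% of all genes rose and 9.34% fell, and the median was 0.58 beside -0.01. The groups did not overlap, with DKO higher, for 1 gene under the authors' scaling (Hspa1a), as in 2.94% of all genes, and for 8 genes after rescaling, as in 20.9% of all genes. Without DKO replicate 3 the authors' scaling gave 2 genes that rose, Hspd1 and Hspe1, where 4.79% of all genes rose. Rescaled values without that library gave 5 genes, Hspa8, Hsp90aa1, Hsp90ab1, Hspd1 and Hspe1, where 8.52% of all genes rose.

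Sex-linked genes and markers of other cells moved with the CD93+ groups. The CD93+ DKO libraries had Xist at 50.7, 22.4 and 19.7 FPKM and CTL replicate 3 at 59.4 FPKM, while CTL replicates 1 and 2 had the Y-linked Ddx3y at 11.9 and 10.6 FPKM. Sex and genotype were thus partly confounded, with 1 control library of the sex of the DKO libraries. With sex as a covariate on rescaled values, 2 of the 10 genes passed, where 3.54% of all genes rose and 1.53% fell, Hsp90aa1 at 0.65 (limma, adjusted p = 0.0269) and Hspd1 at 0.70 (adjusted p = 0.0142). The other 6 genes that had risen after rescaling lost their calls in that fit, at adjusted p = 0.0783 to 0.169. All 6 CD93- libraries carried Ddx3y, at 23.0 to 30.7 FPKM. Red cell markers, 7 of 7 tested, summed to 3296 to 15664 FPKM in CD93+ DKO libraries and 15068 to 64340 FPKM in CTL libraries, and 6 of the 7 fell with the authors' scaling and 0 after rescaling, where 5 were lower at an unadjusted p under 0.05. Neutrophil markers, 6 of 7 tested, summed to 427 to 1355 FPKM in DKO libraries and 1525 to 2135 FPKM in CTL libraries, and 4 fell after rescaling. The part of sex and of these cells in the chaperone values was not tested.

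Hspa8 was at 1021, 1109 and 544 FPKM in CD93+ DKO libraries, against 654, 560 and 822 FPKM in CTL libraries. The groups overlapped, since DKO replicate 3 was the lowest of the 6. Rescaled, the DKO libraries were at 882, 995 and 908 and the CTL libraries at 594, 558 and 703, without overlap. The log2 change was 0.34 ± 0.45 (SE; limma, adjusted p = 0.798), and 0.59 ± 0.11 after rescaling (adjusted p = 0.0137). Under quantile scaling it was 0.33 (limma, adjusted p = 0.0382).

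The stress-induced HSP70 genes passed the filter here, at a few FPKM. Hspa1a was at 2.74, 1.80 and 1.77 FPKM in DKO libraries, against 1.44, 1.01 and 1.06 FPKM in CTL libraries. Hspa1b was at 3.87, 3.02 and 2.08 FPKM in DKO libraries, against 2.15, 1.89 and 1.74 FPKM in CTL libraries. The groups of Hspa1a did not overlap, and those of Hspa1b overlapped through DKO replicate 3. Hspa1a changed by 0.51 ± 0.26 on the log2 scale (SE; limma, adjusted p = 0.412), and by 0.66 ± 0.19 after rescaling (adjusted p = 0.0496). Hspa1b changed by 0.42 ± 0.28 (SE; limma, adjusted p = 0.578), and by 0.59 ± 0.14 after rescaling (adjusted p = 0.0278). On rescaled values without DKO replicate 3 both calls were lost (limma, adjusted p = 0.0985 for Hspa1a and 0.0638 for Hspa1b), and that of Hspa1a also under common sum scaling (adjusted p = 0.0579). Their levels stood above the median nonzero chemoreceptor value of 0.081 to 0.23 FPKM in these libraries.

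Hsph1 was at 23.7, 25.0 and 12.5 FPKM in CD93+ DKO libraries, against 13.6, 12.7 and 20.3 FPKM in CTL libraries. Rescaled, the DKO libraries were at 20.4, 22.4 and 20.9 and the CTL libraries at 12.3, 12.7 and 17.3. CTL replicate 3, the control library with Xist, was the highest control, and the groups separated only after rescaling. The log2 change was 0.34 ± 0.37 (SE; limma, adjusted p = 0.755), and 0.57 ± 0.13 after rescaling (adjusted p = 0.0284). With sex as a covariate the rescaled change was 0.28 (limma, adjusted p = 0.169). The call was also lost with common sum scaling (adjusted p = 0.0607), and on rescaled values with DKO replicate 3 left out (adjusted p = 0.0589).

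Neither J-domain gene passed the test in CD93+ cells under either scaling. Dnaja1 was at 31.1, 34.9 and 17.6 FPKM in DKO libraries, against 26.0, 22.4 and 36.4 FPKM in CTL libraries. Dnajb1 was at 36.9, 40.5 and 19.0 FPKM in DKO libraries, against 40.1, 34.1 and 39.9 FPKM in CTL libraries. Both pairs of groups overlapped, and DKO replicate 3 was the lowest library for each gene. Dnaja1 changed by -0.05 ± 0.38 on the log2 scale (SE; limma, adjusted p = 0.976), and by 0.19 ± 0.13 after rescaling (adjusted p = 0.348), a change of sign. Dnajb1 changed by -0.30 ± 0.39 (SE; limma, adjusted p = 0.796), and by -0.06 ± 0.08 after rescaling (adjusted p = 0.593).

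Hsp90aa1 was at 178, 168 and 101 FPKM in CD93+ DKO libraries, against 124, 106 and 117 FPKM in CTL libraries. Hsp90ab1 was at 768, 819 and 413 FPKM in DKO libraries, against 597, 539 and 618 FPKM in CTL libraries. DKO replicates 1 and 2 were above all controls for both genes, and DKO replicate 3 below all. Hsp90aa1 changed by 0.32 ± 0.42 on the log2 scale (SE; limma, adjusted p = 0.798), and by 0.57 ± 0.07 after rescaling (adjusted p = 0.00503). Hsp90ab1 changed by 0.13 ± 0.45 (SE; limma, adjusted p = 0.943), and by 0.38 ± 0.07 after rescaling (adjusted p = 0.0141), a call lost under quantile scaling, at 0.17 (adjusted p = 0.0722).

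Hspd1 was at 103, 105 and 53.9 FPKM in CD93+ DKO libraries, against 66.4, 61.3 and 65.2 FPKM in CTL libraries. Rescaled, the DKO libraries were at 88.7, 94.0 and 90.0 and the CTL libraries at 60.3, 61.0 and 55.7, the clearest separation of the 10 genes by adjusted p. Hspe1 was at 235, 255 and 102 FPKM in DKO libraries, against 132, 108 and 144 FPKM in CTL libraries. For Hspd1 and Hspe1 too, DKO replicate 3 was the lowest library and the other DKO libraries were the highest. Hspd1 changed by 0.37 ± 0.41 on the log2 scale (SE; limma, adjusted p = 0.756), and by 0.62 ± 0.06 after rescaling (adjusted p = 0.00224). Hspe1 changed by 0.52 ± 0.42 (SE; limma, adjusted p = 0.674), and by 0.76 ± 0.12 after rescaling (adjusted p = 0.00886).

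**Figure D2:**
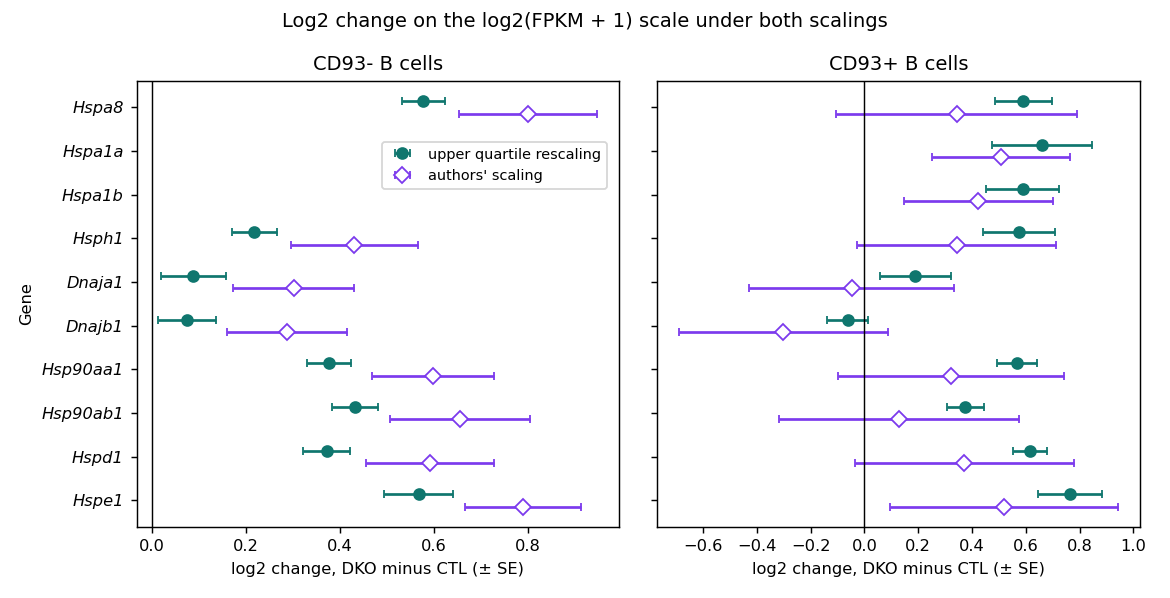
Log2 change (DKO minus CTL, on the log2(FPKM + 1) scale, with its SE from limma) of each gene after upper quartile rescaling (filled circles) and with the authors' scaling (open diamonds), in CD93- cells (left, where Hspa1a and Hspa1b were not tested) and CD93+ cells (right). Rescaled changes lie between 0.07 and 0.58 in CD93- cells and between -0.06 and 0.76 in CD93+ cells, and the SEs under the authors' scaling in CD93+ cells reach 0.45.

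The 10 genes made up 0.402%, 0.439% and 0.409% of the summed FPKM in CD93+ DKO libraries, against 0.278%, 0.276% and 0.330% in CTL libraries. Taken as a share of its own library, DKO replicate 3 thus stood with the other DKO libraries. The summed FPKM also includes red cell markers, at 3296 to 15664 FPKM in DKO libraries and 15068 to 64340 FPKM in CTL libraries. Their part in these shares was not tested. The order of mean levels in the CD93+ table was Hspa8 (rank 108), Hsp90ab1 (127), Hspe1 (418), Hsp90aa1 (521), Hspd1 (995), Dnajb1 (2186), Dnaja1 (2696), Hsph1 (4033), Hspa1b (9826) and Hspa1a (10556). After rescaling within each table, Hspa8, Hsp90aa1, Hsp90ab1, Hspd1, Hspe1 and Hsph1 rose in both populations, which is 6 genes, where 7.33% of the genes tested in both tables did so. The difference between the populations' changes was not tested, since the tables had been made separately.

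A ratio of genes within a library does not change when all values of that library are divided by a common factor. Upper quartile and common sum scaling do this, whereas quantile scaling can change such ratios. The ratios to Hspa8 were chosen after the values had been seen. Per 100 FPKM of Hspa8, Dnajb1 stood at 2.85, 2.82 and 2.62 FPKM in CD93- DKO libraries, against 4.17, 3.88 and 3.68 in CTL libraries. In CD93+ cells Dnajb1 stood at 3.61, 3.66 and 3.50 per 100 FPKM of Hspa8 in DKO libraries, against 6.13, 6.08 and 4.85 in CTL libraries. Dnajb1 was thus lower relative to Hspa8 in each DKO library than in any CTL library of its population, DKO replicate 3 included. Dnaja1 stood at 3.002, 3.31 and 3.28 per 100 FPKM of Hspa8 in CD93- DKO libraries, against 4.87, 4.39 and 4.20 in CTL libraries. In CD93+ cells Dnaja1 stood at 3.04, 3.15 and 3.24 in DKO libraries, against 3.98, 4.004 and 4.43 in CTL libraries, again with no overlap. Hsph1 was also lower relative to Hspa8 in CD93- cells, at 3.32, 3.28 and 3.13 in DKO libraries against 4.12, 4.01 and 4.26 in CTL libraries. In CD93+ cells Hsph1 overlapped, at 2.32, 2.25 and 2.31 in DKO libraries against 2.08, 2.27 and 2.47 in CTL libraries. Hspd1 stood at 9.01, 8.60 and 9.18 per 100 FPKM of Hspa8 in CD93- DKO libraries, against 10.51, 10.4 and 9.89 in CTL libraries, with no overlap. In CD93+ cells Hspd1 overlapped, at 10.1, 9.44 and 9.91 in DKO libraries against 10.2, 10.9 and 7.93 in CTL libraries. All these ratios share Hspa8 as their denominator, and because of how they were chosen no test of them is given. Hspa8 itself changed by 0.80 in CD93- cells, beside a median of 0.11 over all tested genes. In CD93+ cells its rescaled change was 0.59, beside -0.01. A gene that did not change would thus also be lower relative to Hspa8. The share of all genes with such separated ratios was not counted.

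**Figure D3:**
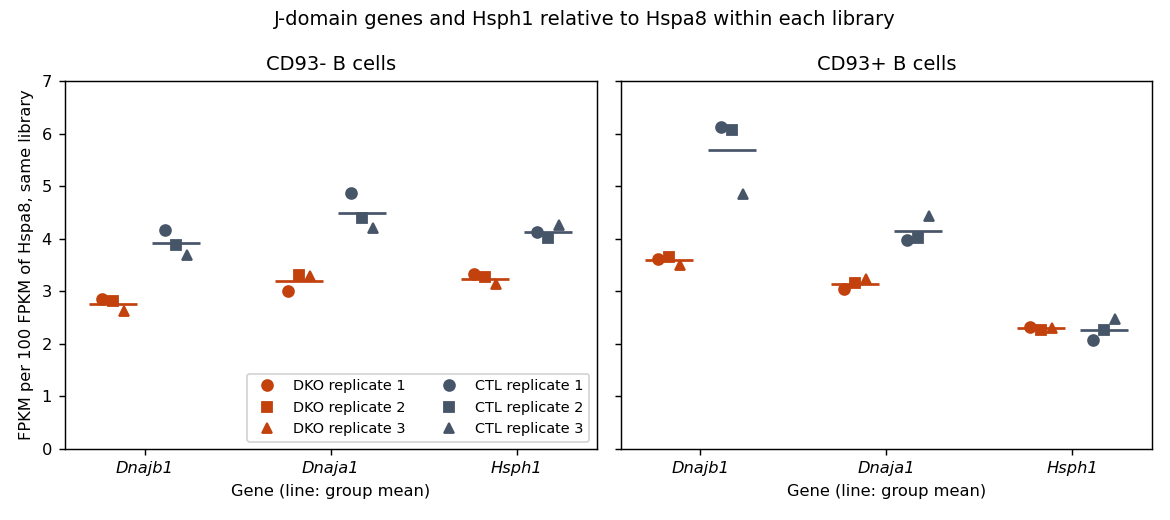
FPKM of Dnajb1, Dnaja1 and Hsph1 per 100 FPKM of Hspa8 in the same library, with DKO libraries (orange) left of CTL libraries (grey), a symbol for each replicate and a line at each group mean. The DKO libraries lie at 2.62 to 3.66 for Dnajb1, below the CTL libraries of their population, and the groups overlap only for Hsph1 in CD93+ cells.

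The rest of the chaperone network was read from 11 gene lists, described by counts and medians. These counts stand beside 18.7% of all tested genes that rose in CD93- cells (17.1% after rescaling) and 1.67% in CD93+ cells (11.4% after rescaling). The shares that fell were 2.79% in CD93- cells (23.8% after rescaling) and 1.54% in CD93+ cells (9.34% after rescaling). Of the 3 heat shock factors and regulators tested, 0 changed in either population or scaling (limma), and 0 passed an unadjusted p of 0.05. Hsf1, the main heat shock factor, was at 25.3, 26.6 and 21.8 FPKM in CD93- DKO libraries, against 19.3, 27.5 and 23.4 FPKM in CTL libraries, which overlapped. Its log2 change was 0.08 ± 0.15 (SE; limma, adjusted p = 0.778), and -0.14 after rescaling. Hsf1 was at 21.0, 15.9 and 8.38 FPKM in CD93+ DKO libraries, against 16.5, 14.7 and 18.02 FPKM in CTL libraries, a log2 change of -0.20 ± 0.37 (adjusted p = 0.870), and 0.03 after rescaling. Hsf2, a related factor, changed by 0.11 in CD93- cells (limma, adjusted p = 0.626), with the sign turned at -0.04 after rescaling, and by -0.45 in CD93+ cells (adjusted p = 0.533). Jun, an immediate early gene, was at 50.7, 55.8 and 51.1 FPKM in CD93- DKO libraries, against 9.56, 13.4 and 13.8 FPKM in CTL libraries. Jun rose by 2.03 ± 0.15 on the log2 scale there (SE; limma, adjusted p = 1.96e-06), while 1 of 13 immediate early genes rose in all with the authors' scaling, and 2 rose and 6 fell after rescaling. None of 14 passed in CD93+ cells with the authors' scaling (limma; 1 lower at an unadjusted p under 0.05), 2 fell after rescaling, and Jun changed by -0.23 (adjusted p = 0.857).

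The endoplasmic reticulum has its own HSP70 and HSP90 systems. Of 10 such genes, 9 rose in CD93- cells under both scalings, with a median log2 change of 0.79, and 0.59 after rescaling. In CD93+ cells 2 of the 10 rose with the authors' scaling and 10 after rescaling, with medians of 0.94 and 1.18. Hspa5 (BiP), the HSP70 of that compartment, was at 226, 233 and 237 FPKM in CD93- DKO libraries, against 96.4, 127 and 120 FPKM in CTL libraries. Hsp90b1 (Grp94), its HSP90, was at 360, 351 and 389 FPKM in CD93- DKO libraries, against 115, 161 and 148 FPKM in CTL libraries. Hspa5 rose by 1.02 ± 0.14 (SE; limma, adjusted p = 0.000255) and Hsp90b1 by 1.38 ± 0.15 (adjusted p = 4.26e-05). In CD93+ cells Hsp90b1 rose by 1.63 ± 0.44 (SE; limma, adjusted p = 0.00805) and Pdia4, a disulfide isomerase, by 1.64 ± 0.42 (adjusted p = 0.00396). Pdia6, of the same family, rose in CD93- cells by 1.10 (limma, adjusted p = 8.77e-05), and Pdia4 by 0.41 (adjusted p = 0.0395). The CD93- call of Pdia4 was lost when any DKO library or CTL replicate 3 was left out (limma, adjusted p = 0.116 to 0.170). Hspa5 changed by 1.30 ± 0.43 in CD93+ cells (limma, adjusted p = 0.0714), and by 1.54 after rescaling (adjusted p = 0.000379). Over all alternatives in CD93+ cells, the sex covariate among them, the adjusted p of Hspa5, Hsp90b1 and Pdia4 reached 0.948 (limma). Leaving out 1 library ended the CD93+ call of Hsp90b1 for 5 of 6 libraries (each but DKO replicate 3; adjusted p = 0.067 to 0.257) and that of Pdia4 for 4, DKO replicates 1 and 2 and CTL replicates 1 and 2 (adjusted p = 0.0611 to 0.222).

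The cytosolic chaperonin TRiC, which folds actin and tubulin, and its helper prefoldin had 13 genes tested. In CD93- cells 8 rose under either scaling, with medians of 0.50 and 0.28, led by Pfdn1 at 0.81 (limma, adjusted p = 0.00119), Cct5 at 0.68 (adjusted p = 0.00352) and Tcp1 at 0.66 (adjusted p = 0.00807). In CD93+ cells 0 passed with the authors' scaling (limma; 0 at an unadjusted p under 0.05) and 8 rose after rescaling, with medians of 0.05 and 0.29. HSP70 nucleotide exchange factors and co-chaperones rose in 3 of 9 genes in CD93- cells, and 4 after rescaling, in a background of 18.7% and 17.1%. Bag2 changed by 0.91 (limma, adjusted p = 0.00304), Bag1 by 0.57 (adjusted p = 0.0153), and Stip1, the bridge between HSP70 and HSP90, by 0.49 (adjusted p = 0.0447). Bag2 was low, with means of 1.846 FPKM in DKO libraries and 0.501 FPKM in CTL libraries. Only its DKO libraries reached 1 FPKM, so Bag2 met the filter through the group in which it was higher. Over the alternatives that tested Bag2, the fit without the filter among them, its adjusted p was at most 0.0288 (limma). Of 10 in CD93+ cells 0 passed with the authors' scaling (limma; 0 at an unadjusted p under 0.05) and 3 rose after rescaling, and Stip1 changed by 0.00 ± 0.41 (adjusted p = 0.999). Bag3, the stress-induced member of that family, was at 0.602, 1.21 and 1.08 FPKM in CD93- DKO libraries, against 0.580, 0.435 and 0.217 FPKM in CTL libraries, under the filter. In CD93+ cells Bag3 changed by 0.32 (limma, adjusted p = 0.633). The calls of Bag1 and Stip1 in CD93- cells were lost without DKO replicate 3 (adjusted p = 0.0585 and 0.163), and that of Stip1 also without DKO replicate 1, DKO replicate 2 or CTL replicate 3 (adjusted p = 0.0722, 0.0912 and 0.0548).

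Of 17 HSP90 co-chaperones tested, 1 rose in CD93- cells, a smaller share than the 18.7% of all genes. After rescaling 2 rose and 4 fell, where 17.1% of all genes rose and 23.8% fell. In CD93+ cells 0 passed (limma; 0 at an unadjusted p under 0.05) and 4 rose after rescaling. Ahsa1, which stimulates the HSP90 ATPase, was the gene that rose in CD93- cells, by 0.52 ± 0.13 (SE; limma, adjusted p = 0.0115), and the call was lost without DKO replicate 2 or 3 (adjusted p = 0.0699 and 0.0694). In CD93+ cells Ahsa1 changed by -0.03 (limma, adjusted p = 0.988), and by 0.21 after rescaling (adjusted p = 0.0318). Of 15 genes tested on the list of other J-domain proteins, 3 rose in CD93- cells. These were Dnajc9 at 0.61 (limma, adjusted p = 0.00724), Dnaja2 at 0.53 (adjusted p = 0.0166) and Dnajb12 at 0.45 (adjusted p = 0.0416). After rescaling 3 rose and 2 fell, so the count of 3 of 15 is near the share of all genes. Dnaja2 lost its call without DKO replicate 3 (adjusted p = 0.110), and Dnajb12 without any DKO library or CTL replicate 3 (adjusted p = 0.0613 to 0.122). Of 16 in CD93+ cells, Dnajb2 fell by 1.14 on the log2 scale (limma, adjusted p = 0.0480). The call was lost without DKO replicate 2, DKO replicate 3, CTL replicate 1 or CTL replicate 2 (adjusted p = 0.0717 to 0.956). After rescaling 2 other genes of the list fell, where 9.34% of all genes did, and Dnajb2 did not pass (limma, adjusted p = 0.169). With sex as a covariate on rescaled values the change of Dnajb2 was 0.028. Of the other HSP70 and HSP110 genes, 2 of 7 rose in CD93- cells, both of the endoplasmic reticulum, Hyou1 at 0.65 (limma, adjusted p = 0.00549) and Hspa13 at 0.56 (adjusted p = 0.0121), again beside 18.7% of all genes. Hspa13 lost its call without DKO replicate 3 (adjusted p = 0.0557). Of 8 in CD93+ cells 0 passed (limma; 2 higher at an unadjusted p under 0.05), and 3 rose and 1 fell after rescaling.

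Of the other mitochondrial chaperones and proteases, 4 of 12 rose in CD93- cells, where 18.7% of all genes did. These were led by Clpb, a disaggregase, at 0.80 (limma, adjusted p = 0.00303), Hscb, a J-domain protein of iron-sulfur cluster assembly, at 0.75 (adjusted p = 0.00222), and Grpel1, the nucleotide exchange factor of mitochondrial HSP70, at 0.56 (adjusted p = 0.00858, lost at 0.0512 without DKO replicate 3). Hspa9, that HSP70, changed by 0.37 (limma, adjusted p = 0.0566; 0.0140 without CTL replicate 1), and Trap1, the mitochondrial HSP90, by 0.35 (adjusted p = 0.108; 0.0282 without CTL replicate 2). In CD93+ cells 0 of 12 passed (limma; 0 at an unadjusted p under 0.05), and 1, Hspa9, rose after rescaling, by 0.42 (adjusted p = 0.00922). Trap1 changed there by -0.06 (limma, adjusted p = 0.972), and by 0.18 after rescaling. Small heat shock proteins were mostly under the filter, with 3 of 10 tested in each population, 0 called with the authors' scaling (limma; 0 at an unadjusted p under 0.05), and after rescaling 1 lower in CD93- cells and 1 higher in CD93+ cells, Hspb7 in both.

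**Figure D4:**
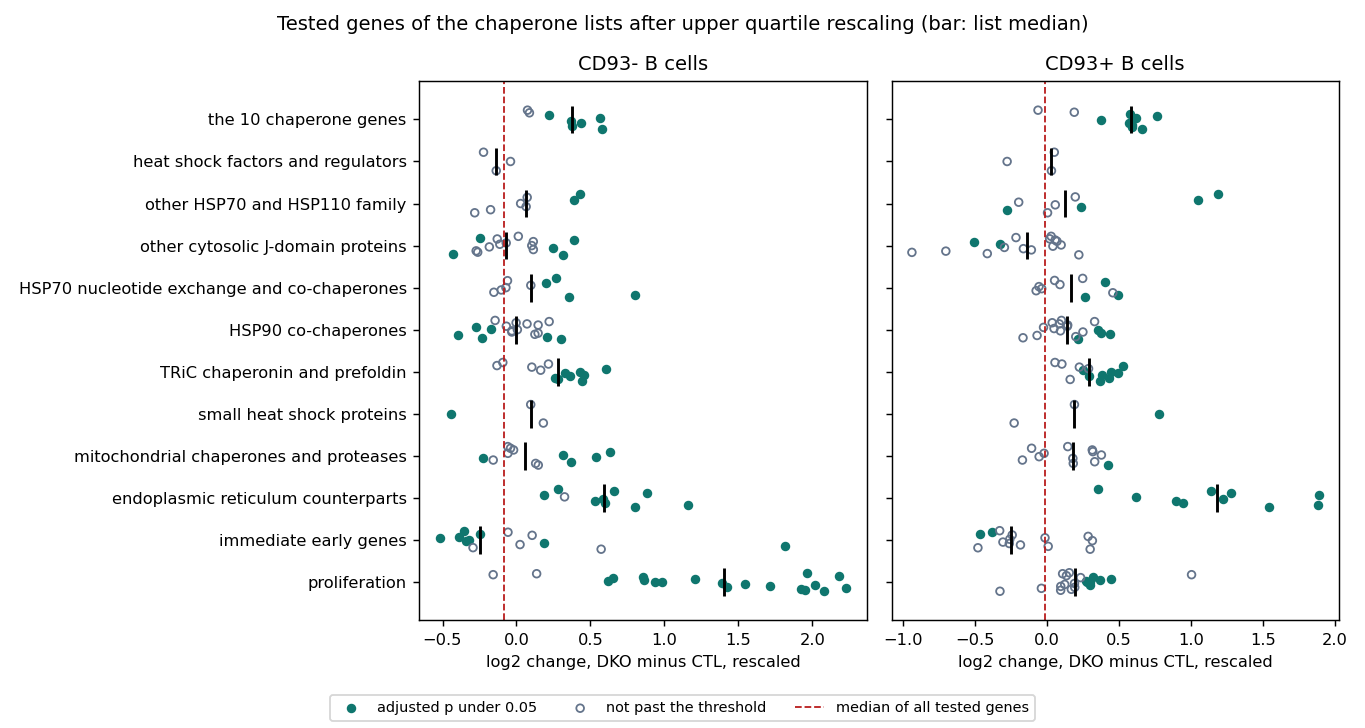
Log2 change after upper quartile rescaling (DKO minus CTL) of each tested gene of the chaperone lists, filled where the adjusted p was under 0.05, with a bar at each list median and a dashed line at the median of all tested genes, -0.08 in CD93- cells (left) and -0.01 in CD93+ cells (right). The 10 chaperone genes have medians of 0.37 and 0.58, and the endoplasmic reticulum genes of 0.59 and 1.18.

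The 6 other genes whose profile over the 12 libraries was most like the median profile of the 10 chaperones, among 4735 genes averaging 10 FPKM or more in each table, were Eif2s2, Cct3, Eif4a1, Rpl13, Yars and Cct6a. Their root mean square distance from that profile was 0.051 to 0.0582 on the log2 scale after rescaling and centring within each table, where the median gene was at 0.254. The distances of the members themselves ran from 0.0542 for Hsp90aa1 to 0.224 for Dnajb1, the least like. The genes named are translation initiation factors (Eif2s2, Eif4a1), TRiC subunits (Cct3, Cct6a), a ribosomal protein (Rpl13) and a tRNA synthetase (Yars). Eif2s2 was at 36.9, 38.5 and 38.0 FPKM in CD93- DKO libraries, against 23.0, 25.9 and 25.2 FPKM in CTL libraries. In CD93+ cells Eif2s2 was at 51.5, 49.2 and 27.0 FPKM in DKO libraries, against 35.9, 30.8 and 34.8 FPKM in CTL libraries.

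Genes of other cells and states moved beside the chaperones. Of 20 proliferation genes 18 rose in CD93- cells, with a median log2 change of 1.55, and Mki67 was at 34.6, 31.7 and 34.9 FPKM in DKO libraries, against 4.42, 7.30 and 7.07 FPKM in CTL libraries. Ccnb2 rose by 2.41 (limma, adjusted p = 7.41e-07) and Rrm2 by 2.38 (adjusted p = 7.16e-06). Of the 20 in CD93+ cells 0 passed (limma; 1 higher at an unadjusted p under 0.05), 7 rose after rescaling, and Mki67 changed by -0.57 (adjusted p = 0.612). Plasma cell genes, 5 of 8 tested, summed to 321 to 359 FPKM in CD93- DKO libraries and 68.4 to 96.0 FPKM in CTL libraries. In CD93+ cells they summed to 844 to 1451 FPKM in DKO libraries and 146 to 200 FPKM in CTL libraries. With the authors' scaling 3 rose and 0 fell in each population. After rescaling 3 rose in each, while 1 fell in CD93+ cells and 1 was lower in CD93- cells at an unadjusted p under 0.05 (limma). B cell markers fell in 2 of 9 genes in either population, and in 6 after rescaling. Of all tested genes 2.79% fell in CD93- cells (23.8% after rescaling) and 1.54% in CD93+ cells (9.34% after rescaling). T cell markers rose in 4 of 9 genes in CD93- cells, summing to 57.2 to 61.7 FPKM in DKO libraries and 32.1 to 51.6 FPKM in CTL libraries. Red cell markers rose in 4 of 6 genes there, and in 2 after rescaling, with sums of 170 to 198 FPKM in DKO libraries and 41.9 to 60.0 FPKM in CTL libraries. Macrophage markers rose there in 2 of 3 tested genes under both scalings, with a median log2 change of 0.83, and sums of 19.5 to 22.2 FPKM in DKO libraries and 16.5 to 19.0 FPKM in CTL libraries. Dendritic cell markers rose in 1 of 5 genes, and 1 rose and 2 fell after rescaling. None of 6 NK cell and 3 neutrophil markers passed in CD93- cells (limma; 1 of each list higher at an unadjusted p under 0.05). The summed markers of each of these 4 lists stayed at or under 69.2 FPKM in every CD93- library, and no marker of these lists was at 0 in all 6. In CD93+ cells 0 of 5 NK cell markers passed with the authors' scaling (limma; 3 higher at an unadjusted p under 0.05) and 2 rose after rescaling, with a rescaled median of 0.85 and sums of 14.2 to 41.1 FPKM in DKO libraries and 10.2 to 25.8 FPKM in CTL libraries. None of 9 T cell markers passed under either scaling there (limma), but 7 were higher at an unadjusted p under 0.05 after rescaling, against 0 with the authors' scaling. Their rescaled median was 0.57, and they summed to 54.7 to 176 FPKM in DKO libraries and 83.5 to 105 FPKM in CTL libraries. None of 7 macrophage markers passed in CD93+ cells under either scaling (limma; with the authors' scaling 1 higher and 1 lower at an unadjusted p under 0.05), and none of 4 dendritic cell markers (0 at an unadjusted p under 0.05). The part of any of these in the chaperone values was not tested.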

How the data were processed

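Total RNA from splenic B cells had been turned into strand-specific SureSelect libraries, per the labels' protocols. The authors deposited FPKM values in 2 tables with 1 column per library. Cufflinks 2.1.1, TopHat2 2.0.8, Bowtie2 2.1.0 and the mm9 build are named by the submitters' processing notes, without their roles. The annotation, the use of strand and the treatment of multiply mapped reads are not given in the sources used here, and sequences come from RefSeq windows of GRCm38.p6. FPKM keeps no counts, so depth is unknown and no counting interval is given. Of 24 samples, 12 were analysed, and the others were not analysed here. Another 6 columns of values held the same values as the CD93+ columns and were left out. The CD93+ comparison had been planned on a table of more populations and was fitted on 6 libraries.

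Within each table, log2(FPKM + 1) was fitted with limma 3.58.1 in R 4.3.3 (lmFit, eBayes with a trend) over genes that reached 1 FPKM in 3 libraries, DKO against CTL, with Benjamini-Hochberg adjustment over all tested genes and a threshold of 0.05. The fit was tested on simulated data with independent noise for each gene. No shift of a whole library was simulated, so that test does not cover such a shift. In CD93+ cells with the authors' scaling, limma pooled the spread fully over genes, so SEs there depend on the mean level alone. Alternatives, whose effect is given in the closing section, were a pseudocount of 0.1 or 5, dropping the filter or raising it to 5 FPKM, scaling by upper quartile, common sum (TPM) or quantiles, an eBayes fit without the trend, weighting of libraries by quality, a block for replicate number, a sex covariate in CD93+ cells, and each library left out. The 10 genes, the 11 pathway lists and the 8 marker lists were chosen with earlier results of these data known. Named besides the 10 were Tet1, Tet2, Tet3, Cd93, Hsf1, Hsf2, Hspa5, Hsp90b1, Hspa9, Trap1, Stip1, Ahsa1, Bag3, Jun and Mki67, up to 3 called genes with the greatest change per list and population, and the 6 genes of most like profile. A few markers and Hspb7 were named after their values were seen. One marker is not reported here.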

Additional observations from a re-analysis of the deposited data

How the results depend on the processing

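In CD93- cells 4 to 6 of the chaperone genes rose under every alternative tried, 4 to 6 when 1 library was left out, and none fell. In CD93+ cells, where none rose with the authors' scaling, 8 rose after upper quartile, 6 after common sum and 7 after quantile scaling, and 0 to 2 when 1 library was left out. Alternatives chosen after seeing the data gave 8 on upper quartile values without the trend, 2 with sex as a covariate, 5 with DKO replicate 3 left out and 3 with the replicate block. Why the scalings differ was not tested. Depth is unknown, and in CD93+ cells sex and genotype are partly confounded, so that the fit with sex as a covariate rests on 1 control library of the sex of the DKO libraries.

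The labels do not say whether replicate numbers pair libraries. Deviations of same-numbered libraries from their group means correlated at -0.139 to 0.166. In both populations the libraries numbered 1 were each other's best match, at 0.166 in CD93+ cells and 0.024 in CD93- cells. With 3 libraries per group these correlations cannot decide whether the numbers pair libraries. With the replicate block the authors' scaling gave 2435 higher and 439 lower genes in CD93- cells and 138 higher and 99 lower in CD93+ cells, and rescaled values gave 1611 and 2078 in CD93- cells and 541 and 357 in CD93+ cells. The counts of chaperone genes with the block on the authors' scaling were 6 and 0.

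Over all genes in CD93- cells, 1353 rose after common sum scaling and 1361 with quality weights, while 2609 fell after upper quartile, 2341 after common sum and 2314 after quantile scaling, and 184 without the filter. Leaving out 1 CD93- library gave 1249 to 2546 higher and 181 to 1121 lower, the highest number of lower genes without CTL replicate 1. In CD93+ cells the higher and lower counts were 11 and 5 without the filter, 73 and 95 with the 5 FPKM filter, 1280 and 1051 after upper quartile, 867 and 731 after common sum and 1103 and 1127 after quantile scaling, 106 and 82 without the trend, 551 and 232 with quality weights, and 80 and 47 with the sex covariate. On upper quartile values they were 1112 and 940 without the trend, 398 and 172 with the sex covariate, and 959 and 674 with DKO replicate 3 left out. Leaving out 1 CD93+ library gave 103 to 539 higher and 60 to 224 lower.

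Signs turned only for changes that had not passed the test, apart from Dnajb2. With 1 library left out, the log2 changes in CD93+ cells ran from -0.23 to 0.24 for Dnaja1, from -0.50 to 0.028 for Dnajb1, from -0.052 to 0.44 for Hsp90ab1, from -0.46 to 0.15 for Hsf1, from -0.21 to 0.22 for Trap1, from -0.18 to 0.27 for Ahsa1, from -0.14 to 0.29 for Stip1 and from -0.45 to 0.022 for Jun, and in CD93- cells from -0.048 to 0.20 for Hsf1. In CD93+ cells Dnaja1 became 0.19 under upper quartile (also without the trend and with the replicate block), quantile and quality-weight fits, and 0.18 under common sum and with DKO replicate 3 left out of upper quartile values. Hsph1 became -0.050 with the sex covariate. Hsf1 in CD93- cells became -0.14 under upper quartile with or without the replicate block, -0.20 under common sum, -0.13 under quantile scaling and -0.056 with quality weights. In CD93+ cells Hsf1 became 0.031 under upper quartile (also without the trend and with the replicate block), 0.021 under common sum, 0.042 under quantile scaling, 0.26 with quality weights and 0.093 on upper quartile values with DKO replicate 3 left out. Hsf2 in CD93- cells became -0.040 under upper quartile with or without the replicate block, -0.095 under common sum and -0.016 under quantile scaling. Tet2 became -0.029 in CD93- cells under common sum, and in CD93+ cells 0.079 with quality weights and 0.011 with the sex covariate on upper quartile values. Trap1 in CD93+ cells became 0.18 under upper quartile (also without the trend, with the sex covariate and with the replicate block), 0.17 under common sum and quantile scaling, 0.12 with quality weights and 0.16 on upper quartile values with DKO replicate 3 left out. Ahsa1 there became 0.21 under upper quartile (also without the trend, with the replicate block and with DKO replicate 3 left out), 0.20 under common sum and with quality weights, 0.14 under quantile scaling and 0.22 with the sex covariate on upper quartile values. Stip1 there became -0.21 with the sex covariate, and Jun 0.0081 under upper quartile (also without the trend and with the replicate block). With the sex covariate on upper quartile values Mki67 became 0.0011 and Dnajb2 0.028.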
